A study of Mus musculus with 4 samples.

Results

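The genes of mitochondrial protein import were followed in whole hearts of Klf9 KO and WT mice. They were all rows of the deposited table whose symbol starts with Timm or Tomm, together with 13 named partners (Pam16, Dnajc15, Dnajc19, Hspa9, Grpel1, Grpel2, Samm50, Mtx1, Mtx2, Pmpca, Pmpcb, Chchd4 and Gfer), and came to 39 of 17485 genes. Total RNA was sequenced from 2 Klf9 KO libraries and 2 WT libraries, all labelled as hearts of male mice aged 8 weeks, whose food and drink the labels call random. Klf9 encodes a Krüppel-like factor, a DNA-binding regulator of transcription, and the design names its bearing on cardiac mitochondria as the question. The labels give neither the strain, nor the kind of allele, nor whether the KO was restricted to a cell type, and nothing in them says that replicates were taken from different mice; p-values here reflect the scatter of these 4 libraries alone, and that scatter could be technical.

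Nearly all mitochondrial proteins are made in the cytosol and cross one or both mitochondrial membranes. The TOM complex is the entry gate of the outer membrane. TIM23 with its motor PAM draws proteins that carry a cleavable presequence into the matrix, where the protease MPP removes the presequence. TIM22 inserts metabolite carriers into the inner membrane with the help of small TIM chaperones, the SAM complex inserts beta-barrel proteins into the outer membrane, and the MIA pathway traps proteins between the membranes by disulfide bonds. The heart, with its dense mitochondria, depends on this machinery for its respiratory chain.

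The deposited table held log2 ratios between libraries, from which an expression value per library was recovered; its unit was not given, so values are compared between libraries for 1 gene and not as levels between genes. Values over all genes summed to 409359 and 418974 in the Klf9 KO libraries and to 426032 and 489534 in the WT libraries, and the depth of sequencing is unknown. Klf9 stood at 2.66 and 1.99 in the Klf9 KO libraries, against 74.9 and 58.8 in the WT libraries. The groups also differed in ways that the labels do not describe. Esr1, the estrogen receptor alpha gene, stood at 0.09 and 0.03 in Klf9 KO hearts, against 3326 and 2726 in WT hearts, and Tnni1, the slow troponin I of the immature heart, stood at 656 and 994, against 0.16 and 0.01. Other genes of the immature or growing heart went the same way: Mki67, a marker of dividing cells, stood at 17.0 and 20.8 in Klf9 KO hearts, against 1.03 and 1.16 in WT hearts, the growth factor Igf2 at 311 and 399, against 8.87 and 4.65, and Myh7, the fetal myosin of the mouse ventricle, at 93.0 and 219, against 49.15 and 32.4. Tnni3, the troponin I of the mature heart, was lower (log2 fold change -0.73). Myh6, the myosin of the adult mouse heart, was not reduced. It stood at 8725 and 7138 in Klf9 KO hearts, against 7101 and 4788 in WT hearts, and did not pass. The values of Tnni1, Mki67, Igf2 and Myh7 leave the labelled age of 8 weeks in doubt for the Klf9 KO hearts. Stage and genotype cannot be told apart. The library labelled Klf9 KO replicate 2 went against its label of male sex: the Y-linked Kdm5d and Ddx3y were each at 0.01 there, against 4.01 and 7.82 in Klf9 KO replicate 1. Markers of cell types are given beside a background of 27.7% of all tested genes higher and 17.0% lower in Klf9 KO hearts. Of 7 cardiomyocyte markers, Tnni3 was lower and 6 did not pass the test. The fold changes of Myh6 and Myl2 were positive and those of the other 5 negative. The median log2 fold change of the 7 was -0.47, close to that of the import genes given below. Of markers of other cells, 3 of 5 smooth muscle and pericyte, 2 of 5 fibroblast and 2 of 5 endothelial genes were higher. Lower were 3 of 4 macrophage genes, 1 smooth muscle and pericyte gene and 1 fibroblast gene. With lists this short, such counts beside that background are not read as shifts of a cell type. The epicardial Upk3b and Msln reached 1 in both Klf9 KO libraries but in WT replicate 2 alone. They thus entered the test through the Klf9 KO libraries, and no call is read from them. Upk3b stood at 7.58 and 5.33 in Klf9 KO hearts, against 0.04 and 1.44 in WT hearts, and Msln at 4.95 and 3.32, against 0.04 and 1.33. The epicardial Wt1, which reached 1 in every library, was higher, at 7.55 and 9.82, against 4.82 and 3.69 in WT hearts. The median log2 fold change of the 4 tested macrophage genes was -0.87. None of 3 tested erythroid genes passed (limma), the lymphocyte and adipocyte genes were too low to test, and of the skeletal muscle genes Acta1, which hearts also express, was lower while Myh1 and Myh4 did not exceed 0.04. Their part in the results was not tested, and the design cannot tell apart the loss of Klf9 from the other differences between the groups. In bulk tissue, fewer cells of a type and less RNA per cell cannot be told apart either.

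The promoters of the genes whose values moved farthest are shown first, because the question concerns a transcription factor. They are those of the 3 largest decreases for which the RefSeq table (GRCm38.p6) has an entry, Tomm5, Timm23 and Timm8b, and that of Tomm34, the only increase. Each runs 5′ to 3′ along the gene's strand, from 250 bases before to 50 bases after the annotated start. Tomm5 lies at chr4:45108064-45108363 on the minus strand, Timm23 at chr14:32201842-32202141 on the minus strand, Timm8b at chr9:50603651-50603950 on the plus strand and Tomm34 at chr2:164071120-164071419 on the minus strand. Capitals mark either of 2 motifs on either strand: CCGGAAG, a core of sites for ETS factors, a family that includes the mitochondrial gene regulator GABPA, and CACCC, the GT box known for Krüppel-like factors; the 2 motifs can share bases.
Tomm5: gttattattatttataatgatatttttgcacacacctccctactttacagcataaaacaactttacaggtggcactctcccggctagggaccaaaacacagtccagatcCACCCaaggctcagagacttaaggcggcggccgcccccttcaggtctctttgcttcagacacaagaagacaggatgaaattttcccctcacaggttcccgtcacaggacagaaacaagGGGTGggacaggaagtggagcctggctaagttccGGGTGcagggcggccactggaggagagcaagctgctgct
Timm23: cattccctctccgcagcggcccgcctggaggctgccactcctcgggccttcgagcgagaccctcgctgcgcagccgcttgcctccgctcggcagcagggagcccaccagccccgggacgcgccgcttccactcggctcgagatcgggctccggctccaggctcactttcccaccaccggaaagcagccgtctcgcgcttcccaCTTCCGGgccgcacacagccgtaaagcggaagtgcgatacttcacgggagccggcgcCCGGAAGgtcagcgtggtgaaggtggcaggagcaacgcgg
Timm8b: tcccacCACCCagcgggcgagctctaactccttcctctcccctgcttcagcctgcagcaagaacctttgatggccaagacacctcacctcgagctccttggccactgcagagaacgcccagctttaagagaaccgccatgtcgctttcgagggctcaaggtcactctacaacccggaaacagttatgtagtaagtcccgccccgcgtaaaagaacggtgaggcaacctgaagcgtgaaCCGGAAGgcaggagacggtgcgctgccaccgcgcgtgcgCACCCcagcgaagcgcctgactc
Tomm34: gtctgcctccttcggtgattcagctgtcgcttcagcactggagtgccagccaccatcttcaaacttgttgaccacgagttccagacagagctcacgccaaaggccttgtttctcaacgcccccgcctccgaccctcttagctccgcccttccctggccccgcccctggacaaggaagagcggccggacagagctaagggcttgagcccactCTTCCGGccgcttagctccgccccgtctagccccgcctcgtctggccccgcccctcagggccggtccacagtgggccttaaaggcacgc
The window of Tomm5 held 3 GT boxes and 0 ETS cores, that of Timm23 held 2 ETS cores and 0 GT boxes, and that of Timm8b held 1 ETS core and 2 GT boxes. The printed window of Tomm34, the first of 2 annotated for this gene, held 1 ETS core and 0 GT boxes, while the other, chr2:164071053-164071352, which overlaps it, held 2 ETS cores and 1 GT box. Promoter entries were found for 34 of the 39 import genes, in 36 windows. The ETS core was in 16 of the 36 windows (44.4%), against 17.1% of the 12434 windows of tested genes, and the GT box was in 20 of 36 (55.6%), against 63.4%. GGGCGG, the GC box of Sp and Krüppel-like factors, was in 21 of 36 (58.3%), against 62.4%, and it can share bases with the GT box. Of the 8 windows of import genes that were lower in Klf9 KO hearts, 5 held the ETS core, 6 the GT box and 4 the GC box. A match of letters is a description of the window and not a site of binding.

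**Figure D1:**
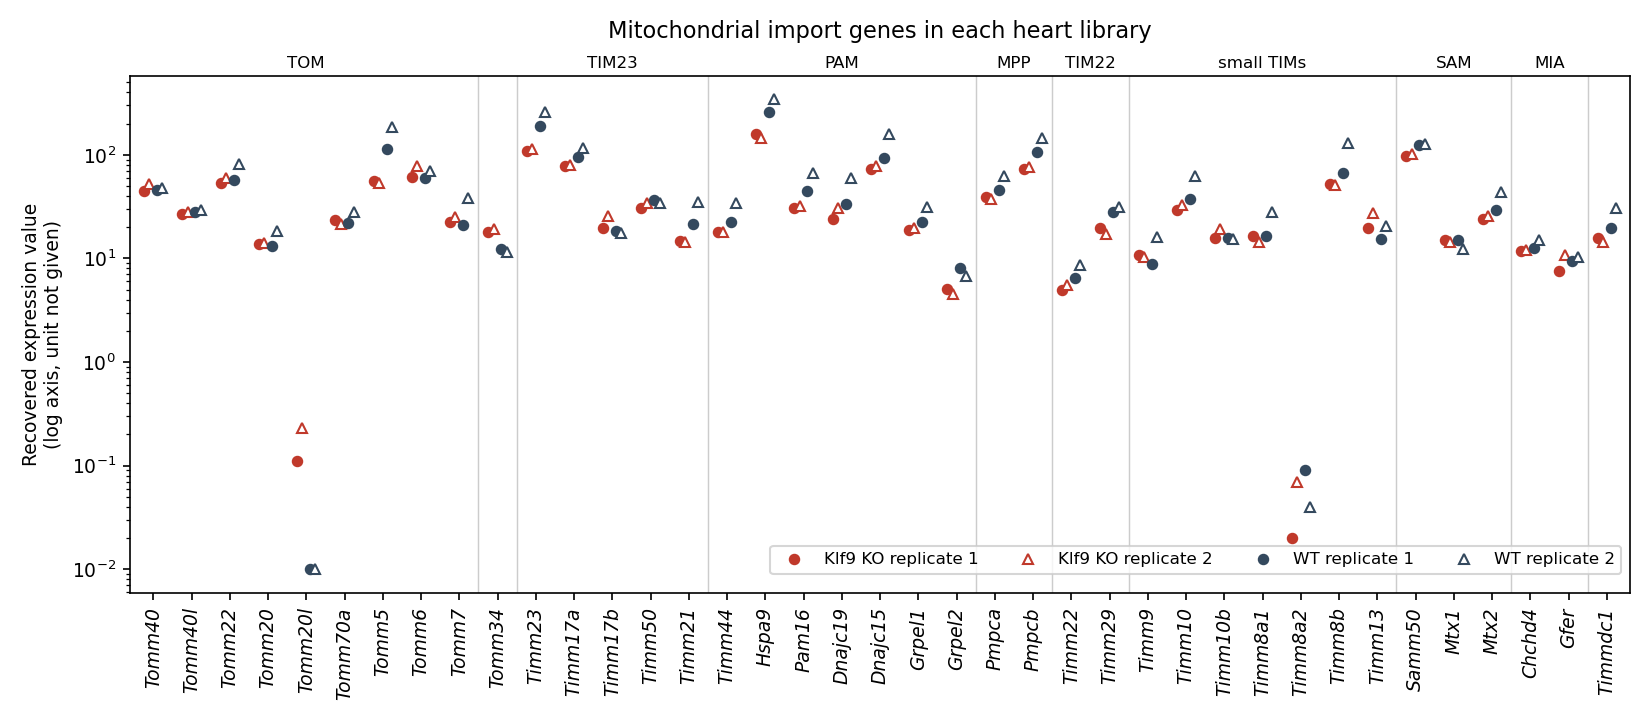
Recovered expression value (log axis, unit not given) of the 39 import genes in each library, grouped by complex, with Klf9 KO libraries as red and WT libraries as dark points. For Tomm5, Timm23 and Hspa9 both red points lie below both dark points, for Tomm34 both lie above, and Tomm20l and Timm8a2 lie below 1 in all 4 libraries.

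Import genes were lower or did not pass in Klf9 KO hearts, with 1 exception. A gene was tested where its value reached 1 in at least 2 libraries, which 37 of the 39 did; the test was limma on log2(value + 1) across all 12135 such genes, and the threshold a Benjamini-Hochberg adjusted p of 0.05. Of the 37, 11 were lower (29.7%), 1 was higher (2.70%) and 25 did not pass. Over all 12135 genes tested, 17.0% were lower and 27.7% higher. The 11 lower genes had log2 fold changes between -1.40 and -0.53, or group means in the Klf9 KO of 0.364 to 0.650 times those in WT. The median log2 fold change of the 37 was -0.44, against 0.12 over all tested genes, a difference of -0.56. RLE scaling of the libraries moved the median of all genes to -0.01; 19 import genes were then lower and 0 higher (limma; 1 was higher at an unadjusted p below 0.05), against 21.4% and 21.7% of all tested genes. In 23 of the 37 import genes both Klf9 KO libraries lay below both WT libraries, and in 2, Tomm34 and Timm17b, they lay above, against 30.2% and 45.2% of all tested genes. The calls rested on both Klf9 KO libraries. Without Klf9 KO replicate 2, the library that went against its label, Tomm5 was the 1 import gene called (2.70%), against 9.06% of all tested genes lower, and without Klf9 KO replicate 1 it was again Tomm5 alone (2.70%), against 10.3%. The share of lower import genes was thus below that of all tested genes in these fits. All 11 kept a negative fold change, but this had to be so. In each of the 11, both Klf9 KO libraries lay below both WT libraries. Without WT replicate 1 there were 24 lower import genes (64.9%), against 26.9% of all tested genes, and 1 higher, against 35.7%. Without WT replicate 2 there were 10 lower (27.0%), against 19.1%, and 2 higher, against 32.9%. Without the filter on low values 4 of the 39 were lower (10.3%), the same share as among all 17485 genes (10.3%). These 2 shares are over unlike sets. Dropping the filter added Tomm20l and Timm8a2 to the import genes, while the whole set grew from 12135 to 17485 genes.

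**Figure D2:**
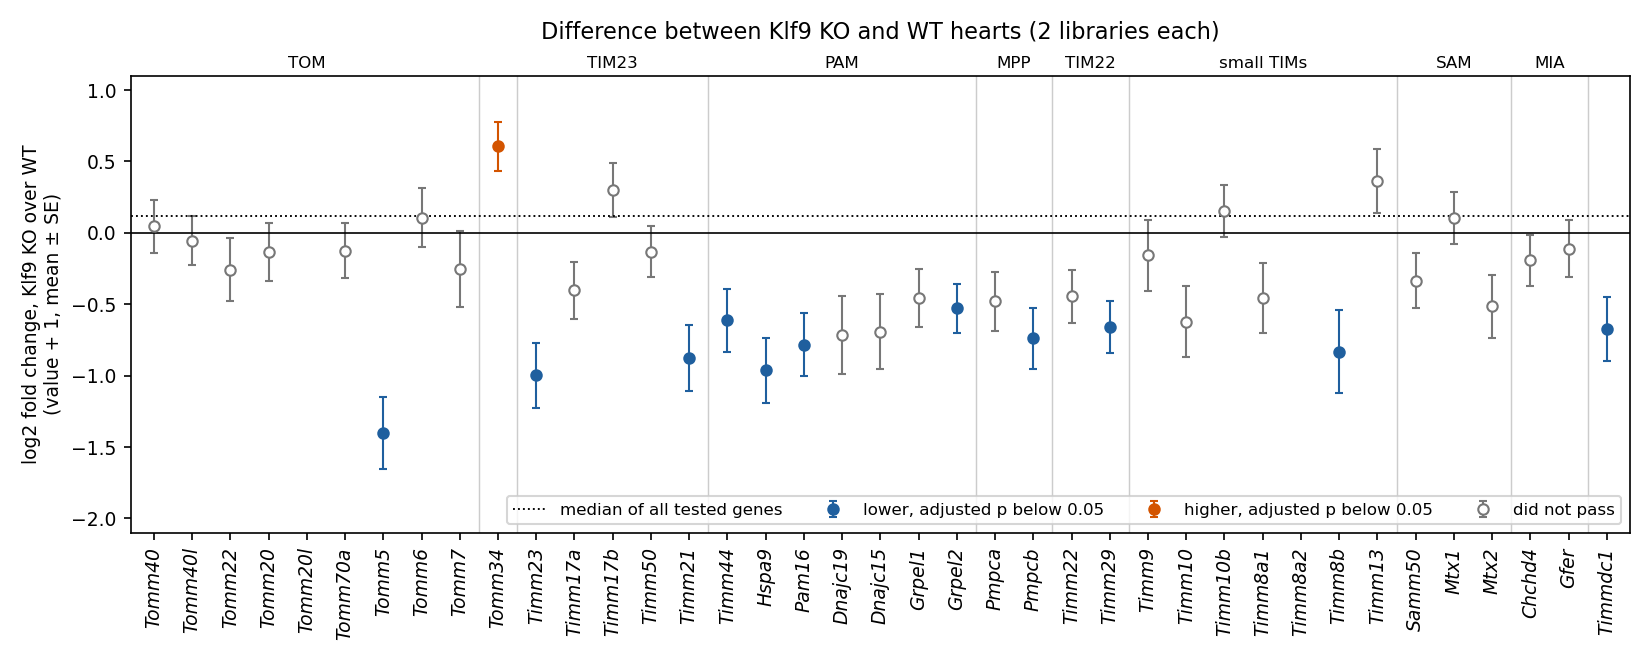
Log2 fold change of Klf9 KO over WT hearts with its SE (limma on log2(value + 1), 2 libraries a group) for the 37 tested import genes; Tomm20l and Timm8a2 were not tested. Filled blue points (11) were lower and the filled orange point (Tomm34) higher at an adjusted p below 0.05, open points did not pass, and the dotted line is the median of all tested genes at 0.12.

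At the outer membrane, Tomm5 stood apart from the other TOM genes. Tomm5 encodes the smallest subunit of the complex, which in yeast helps to pass precursors to the channel. It stood at 56.3 and 52.9 in Klf9 KO hearts, against 115 and 186 in WT hearts. Both Klf9 KO libraries lay below both WT libraries, and its log2 fold change of -1.40 ± 0.25 (SE; limma adjusted p = 0.0022) was the lowest of the import genes tested. Its 4 pairwise log2 ratios ran between -1.81 and -1.03. The other 7 tested TOM genes did not pass. Tomm40, the channel itself, stood at 45.2 and 52.0 in Klf9 KO hearts, against 45.8 and 48.2 in WT hearts, with overlapping groups and a log2 fold change of 0.05 ± 0.18 that was negative after RLE scaling (-0.10). Its paralog Tomm40l was at 27.0 and 28.07, against 28.02 and 29.2. The receptors, which bind precursors in the cytosol, had log2 fold changes of -0.26 for Tomm22, -0.14 for Tomm20 and -0.12 for Tomm70a, and the small subunits Tomm6 and Tomm7 had 0.11 and -0.25. Tomm20 stood at 13.9 and 14.2 in Klf9 KO hearts and at 13.1 and 18.4 in WT hearts, which overlap. The SE of these ranged up to 0.27, so that changes of this size could not be told from none with 2 libraries a group; Tomm6 was negative after RLE scaling (-0.04). Tomm20l, a paralog of Tomm20, was listed at 0.11 and 0.23 in Klf9 KO hearts and at the smallest step of 0.01 in both WT libraries, and was not tested.

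Tomm34 was the 1 import gene that rose. Its protein is a cytosolic co-chaperone of Hsp70 and Hsp90 that was named for a role in import and is not a subunit of the TOM complex. It stood at 18.1 and 19.3 in Klf9 KO hearts, against 12.4 and 11.5 in WT hearts, and the groups did not overlap. The log2 fold change was 0.61 ± 0.17 (SE; limma adjusted p = 0.0199). After RLE scaling it was 0.47 and did not pass (limma adjusted p = 0.0550), nor did it pass without Klf9 KO replicate 1 (0.159) or replicate 2 (0.255).

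In the presequence translocase of the inner membrane, the channel gene Timm23 fell. It stood at 109 and 113 in Klf9 KO hearts, against 189.6 and 261 in WT hearts, a log2 fold change of -0.997 ± 0.226 (SE; limma adjusted p = 0.00726) with groups that did not overlap. Timm21, which links the translocase to TOM and to respiratory chain assembly, stood at 14.7 and 14.4, against 21.6 and 34.9 in WT hearts (-0.88 ± 0.23; limma adjusted p = 0.0148). Both fell, while the other 3 genes of the translocase did not pass. Timm50, the receptor on the inner side, was at 30.8 and 33.9 in Klf9 KO hearts and at 36.8 and 34.4 in WT hearts (-0.13 ± 0.18). Timm17a and Timm17b encode alternative partners of the channel and pointed in different directions without passing: Timm17a was at 78.5 and 80.2 in Klf9 KO hearts, against 95.15 and 116 in WT hearts, and Timm17b was at 19.8 and 25.4, against 18.45 and 17.6. The ratio of Timm17a to Timm17b within a library was 3.96 and 3.16 in Klf9 KO hearts, against 5.16 and 6.60 in WT hearts, so the groups did not overlap. A common multiple of a gene's values is lost, so such ratios are compared between libraries and not read as levels.

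The import motor held the largest number of lower genes, 4 of 7, against 17.0% of all tested genes. All 7 had negative fold changes, as had 30 of the 37 tested import genes. The share of negative fold changes over all tested genes was not computed, and their median was 0.12. Without a filter on low values, only Hspa9 of these 4 genes was lower. Hspa9, the matrix Hsp70 (mortalin) that pulls proteins in, stood at 159 and 145 in Klf9 KO hearts, against 257 and 344 in WT hearts (log2 fold change -0.96 ± 0.23, SE; limma adjusted p = 0.00868). Pam16, which controls the J protein of the motor, stood at 30.4 and 32.4, against 45.0 and 66.4 in WT hearts (-0.78 ± 0.22; limma adjusted p = 0.0189). Both genes had groups without overlap, and both WT libraries were well above the Klf9 KO pair. Timm44, the scaffold that holds Hspa9 at the channel, was at 17.8 and 18.04 in Klf9 KO hearts, against 22.7 and 34.4 in WT hearts (-0.61 ± 0.22; limma adjusted p = 0.0490), next to the threshold. It did not pass with a pseudocount of 0.1 (limma adjusted p = 0.0507), without a filter on low values (0.107) or without WT replicate 2 (0.0675). Grpel2, one of 2 nucleotide exchange factors of Hspa9, was at 5.04 and 4.53, against 8.0 and 6.73 in WT hearts (-0.53 ± 0.17; limma adjusted p = 0.0346). Grpel2 was also the 1 lower gene with its higher WT value in replicate 1. Its paralog Grpel1 had a log2 fold change of -0.46 ± 0.21 and did not pass (18.9 and 19.5 in Klf9 KO hearts, against 22.5 and 31.6 in WT hearts).

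The J proteins of the motor, which set the ATPase cycle of Hspa9 going, missed the threshold. Dnajc19, whose loss in humans causes a dilated cardiomyopathy with ataxia, stood at 23.98 and 30.4 in Klf9 KO hearts, against 33.6 and 60.01 in WT hearts (log2 fold change -0.71 ± 0.27, SE; limma adjusted p = 0.0606). Dnajc15, its paralog, known in mice as a brake on respiration, stood at 72.7 and 78.5, against 93.9 and 160.3 in WT hearts (-0.69 ± 0.26; limma adjusted p = 0.0597). In both genes the Klf9 KO libraries lay below both WT libraries, and the WT libraries were far apart. The ratio of Dnajc15 to Dnajc19 overlapped between the groups, at 3.03 and 2.58 in Klf9 KO hearts and 2.79 and 2.67 in WT hearts. Both genes passed after RLE scaling (limma adjusted p = 0.0278 for Dnajc15 and 0.0306 for Dnajc19).

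Of the 2 subunits of the matrix processing peptidase, the catalytic one fell. Pmpcb stood at 72.2 and 76.05 in Klf9 KO hearts, against 107 and 145 in WT hearts (log2 fold change -0.74 ± 0.22, SE; limma adjusted p = 0.0222). Pmpca, the subunit that recognises the presequence, was at 38.8 and 37.3, against 45.7 and 62.4 in WT hearts (-0.48 ± 0.21; limma adjusted p = 0.0877). Neither gene had overlapping groups, and the ratio of Pmpcb to Pmpca was 1.86 and 2.04 in Klf9 KO hearts, against 2.34 and 2.32 in WT hearts.

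On the carrier route, Timm29 fell. It encodes a subunit of TIM22 found in animals and stood at 19.6 and 17.4 in Klf9 KO hearts, against 28.01 and 31.5 in WT hearts (log2 fold change -0.66 ± 0.18, SE; limma adjusted p = 0.0172). Timm22, the channel, was at 5.01 and 5.53, against 6.50 and 8.68 in WT hearts (-0.44 ± 0.19; limma adjusted p = 0.0821). The groups of both genes did not overlap. The small TIMs form hexameric chaperones between the membranes, Timm9 with Timm10 and the Timm8 proteins with Timm13. Timm8b fell, to 52.2 and 51.0 in Klf9 KO hearts, against 66.4 and 129 in WT hearts (-0.83 ± 0.29; limma adjusted p = 0.0438). The WT libraries of Timm8b were the farthest apart of the tested import genes, with replicate 2 higher by 0.96 on the log2 scale. Its partner Timm13 had a log2 fold change of 0.36 ± 0.23 and did not pass, with 19.5 and 27.2 in Klf9 KO hearts and 15.2 and 20.55 in WT hearts, which overlap. The ratio of Timm8b to Timm13 was 2.67 and 1.87 in Klf9 KO hearts, against 4.36 and 6.28 in WT hearts, a difference without overlap. Timm10 was at 29.3 and 32.6 in Klf9 KO hearts, against 37.3 and 62.15 in WT hearts (-0.62 ± 0.25; limma adjusted p = 0.0686), and Timm9 had -0.16 ± 0.25. Timm8a1, whose human counterpart is lost in deafness-dystonia syndrome, was at 16.35 and 14.5, against 16.45 and 28.1 in WT hearts (-0.46 ± 0.25), and Timm10b had 0.15 ± 0.18. Timm8a2 did not exceed 0.09 in any library and was not tested.

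**Figure D3:**
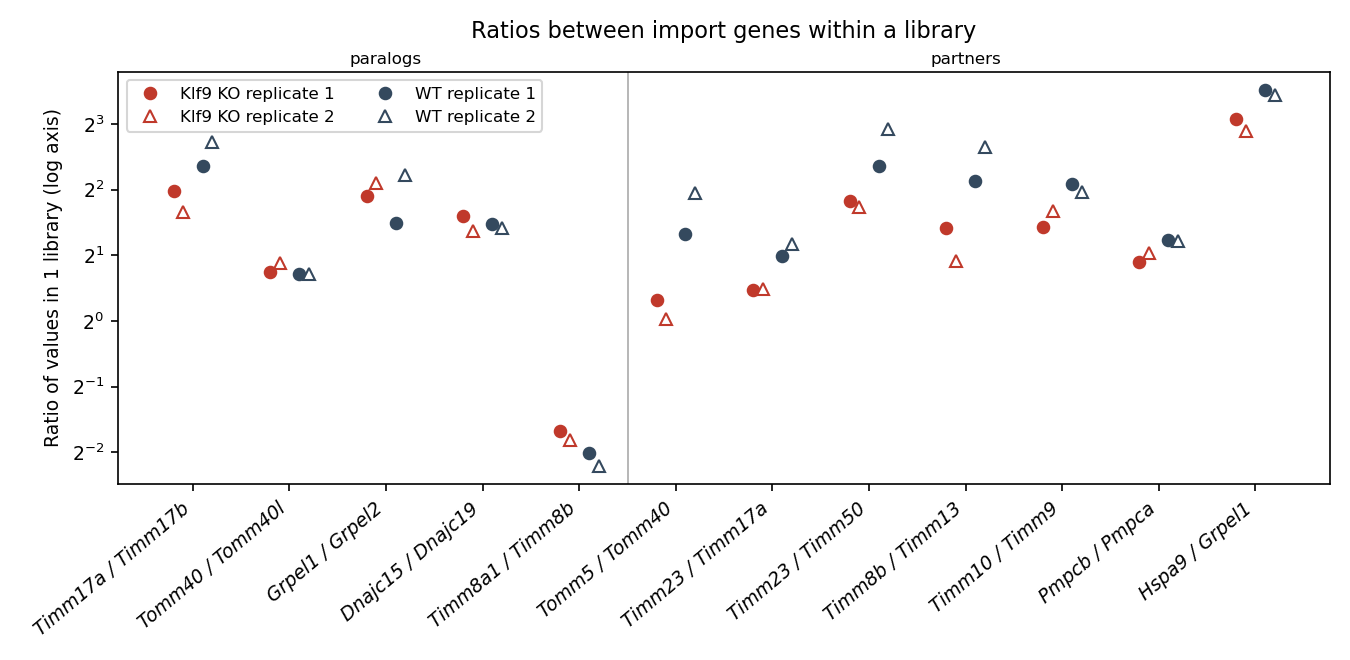
Ratio of the values of 2 import genes within 1 library (log axis), for 5 pairs of paralogs and 7 pairs of partners, in Klf9 KO (red) and WT (dark) libraries. The ratio of Tomm5 to Tomm40 was 1.25 and 1.02 in Klf9 KO hearts and 2.51 and 3.85 in WT hearts, the widest gap of the 12 ratios; Grpel1 to Grpel2 and Dnajc15 to Dnajc19 overlapped.

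These within-library ratios cancel the scale of a library. Their size is not read as the level of 1 gene beside another, since a common multiple of a gene's values is lost. In 10 of the 12 pairs plotted the 2 groups did not overlap. Single genes often did the same: of all tested genes, 30.2% lay below WT and 45.2% above WT without overlap. The share over other pairs of genes was not computed, so the count of 10 is not read as a result. An exact two-sided permutation test of 2 against 2 libraries cannot give a p below 0.333, which each of these 10 had. The 7 pairs of partners were chosen after their values were seen. The difference in mean log2 ratio, Klf9 KO minus WT, was -1.47 for Tomm5 to Tomm40, -1.23 for Timm8b to Timm13, -0.87 for Timm23 to Timm50 and -0.72 for Timm17a to Timm17b. It was 0.10 for Tomm40 to Tomm40l. These ratios are a description.

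The genes of the other routes did not pass. Samm50, the core of the SAM complex, stood at 97.3 and 101 in Klf9 KO hearts, against 124 and 127 in WT hearts, without overlap and with close replicates (log2 fold change -0.33 ± 0.19, SE; limma adjusted p = 0.190). The metaxins are its partners: Mtx2 had -0.52 ± 0.22 (limma adjusted p = 0.0900) and Mtx1 0.10 ± 0.18, which was negative after RLE scaling (-0.04). Chchd4, the oxidoreductase of the MIA pathway, had -0.19 ± 0.18, and Gfer, the sulfhydryl oxidase that recharges it, had -0.11 ± 0.20. Timmdc1 fell, to 15.6 and 14.5 in Klf9 KO hearts, against 19.8 and 30.5 in WT hearts (-0.68 ± 0.22; limma adjusted p = 0.0363). Despite its name Timmdc1 encodes an assembly factor of complex I and not an import channel.

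The WT libraries differed in these genes more than the Klf9 KO libraries did. Replicate 2 over replicate 1 gave a median log2 ratio of 0.06 in the Klf9 KO and of 0.43 in WT over the 37 tested import genes, against 0.04 and 0.03 over all tested genes. In WT, 31 of the 37 were higher in replicate 2, or 83.8%, against 52.4% of all tested genes, and 10 of the 11 lower genes were among them. The size of a difference from WT therefore depended on the WT library. Against WT replicate 1 the median log2 ratio of the import genes was -0.28 for Klf9 KO replicate 1 and -0.18 for replicate 2, and against WT replicate 2 it was -0.68 and -0.64. Over all tested genes the same 4 medians were 0.15, 0.19, 0.10 and 0.14. The 4 ratios share libraries and are not independent.

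**Figure D4:**
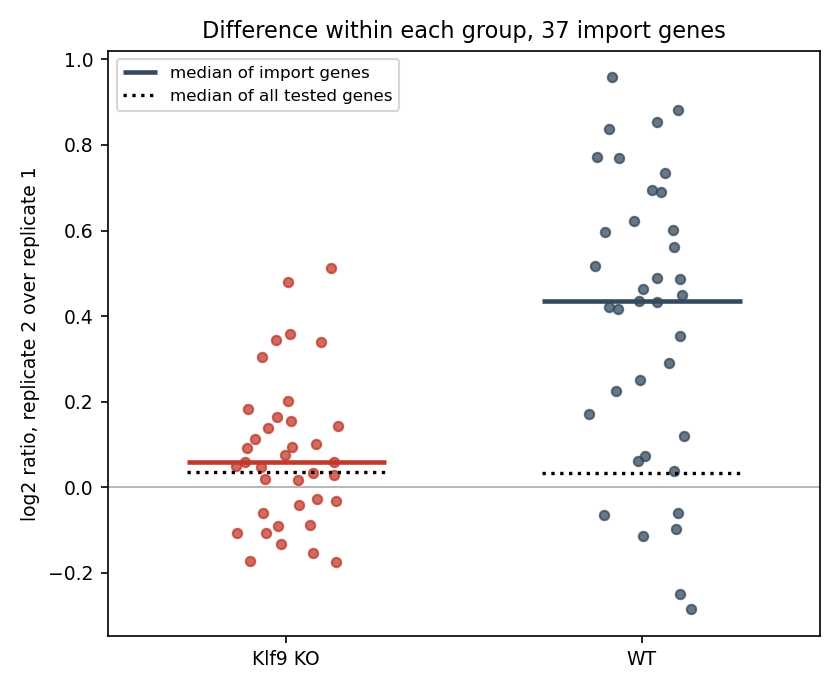
Log2 ratio of replicate 2 over replicate 1 within Klf9 KO (left) and WT (right) for the 37 tested import genes; points are genes, coloured bars their medians (0.06 and 0.43) and dotted bars the medians of all tested genes (0.04 and 0.03). The points of the Klf9 KO lie between -0.17 and 0.51, those of WT between -0.29 and 0.96.

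DEGseq, as run in the authors' deposited table, gave q below 0.05 for 26 of the tested import genes with a negative and 4 with a positive log2 ratio, against 33.6% and 47.5% of all tested genes, and q of 0.05 or more for 7. The 4 with a positive log2 ratio in the authors' deposited table were Tomm34 (0.65), Timm13 (0.42), Timm17b (0.24) and Tomm6 (0.13). At q below 0.001 and at least 2-fold the authors' deposited table kept Tomm5 alone among the tested import genes (log2 ratio -1.41), against 9.44% of all tested genes lower. Timm23 (-0.99) and Hspa9 (-0.95) fell just short of that fold in the authors' deposited table.

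Reads of overlapping genes limit a few of these values, because whether reads were counted by strand was not given. In GENCODE vM21, 15 of the 39 import genes share exon bases with a protein-coding gene on the opposite strand. The lower genes among them are Pam16 (455 bases shared with Glis2), Timm29 (107 with Yipf2) and Timm8b (81 with Nkapd1). Timm23, also lower, shares 104 bases with the snoRNA Gm23946 on its own strand, which counting by strand would not separate. Tomm6 shares 859 bases with the read-through gene Gm21981 on its own strand, and Tomm40l shares 3304 with Nr1i3 on the other.

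Other genes of mitochondrial import and folding were taken from lists of textbook genes. Of 15 further import, insertion and folding factors, 7 were lower (46.7%) and 2 higher (13.3%), against 17.0% and 27.7% of all tested genes. Dnaja3, a matrix co-chaperone of Hspa9, stood at 30.8 and 28.02 in Klf9 KO hearts, against 58.9 and 67.9 in WT hearts (log2 fold change -1.08 ± 0.19, SE; limma adjusted p = 0.00181). Bcs1l, which moves the Rieske protein across the inner membrane, was at 11.9 and 13.2, against 23.0 and 24.1 in WT hearts (-0.86 ± 0.17; limma adjusted p = 0.00422). The 2 that rose act at the outer membrane: Mtch1, an insertase of helical proteins, stood at 124 and 138 in Klf9 KO hearts, against 74.1 and 65.0 in WT hearts (0.91 ± 0.20; limma adjusted p = 0.00598), and Mtx3, another metaxin, at 8.72 and 7.42, against 3.63 and 4.10 in WT hearts (0.90 ± 0.17; limma adjusted p = 0.00329). Both remained positive after RLE scaling (0.76 and 0.77). Mtch2, in the same list, had a log2 fold change of the other sign (-0.53 ± 0.23, SE) and did not pass. Of 7 other mitochondrial proteases, 4 were lower (57.1%) and 0 higher (limma; 0 higher at an unadjusted p below 0.05), beside the same background. Immp2l, a subunit of the inner membrane peptidase, fell to 2.75 and 2.70 in Klf9 KO hearts, against 10.6 and 18.1 in WT hearts (-2.0002 ± 0.2353; limma adjusted p = 0.000264). Its partner Immp1l stood at 35.6 and 33.35, against 49.2 and 76.5 in WT hearts (-0.82 ± 0.23; limma adjusted p = 0.0199).

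Import genes were then set beside 2 large groups of genes whose products they import. The complex I group was picked by symbol, as Nduf followed by a, b, c, s or v. It therefore takes in assembly factors named Ndufaf and is not a list of subunits alone. Of 78 tested genes of the mitochondrial ribosome 38 (48.7%) were lower. Of 47 tested genes of the complex I list 21 (44.7%) were lower, against 11 of 37 import genes (29.7%) and 17.0% of all tested genes. In both groups 0 were higher (limma; 0 and 1 were higher at an unadjusted p below 0.05). Median log2 fold changes were -0.55 for the ribosome and -0.65 for the complex I list, against -0.44 for the import genes. Within WT, replicate 2 was above replicate 1 by a median of 0.44 and 0.56 on the log2 scale in these groups, against 0.43 in the import genes. Whether the groups of genes differ from one another was not tested.

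**Figure D5:**
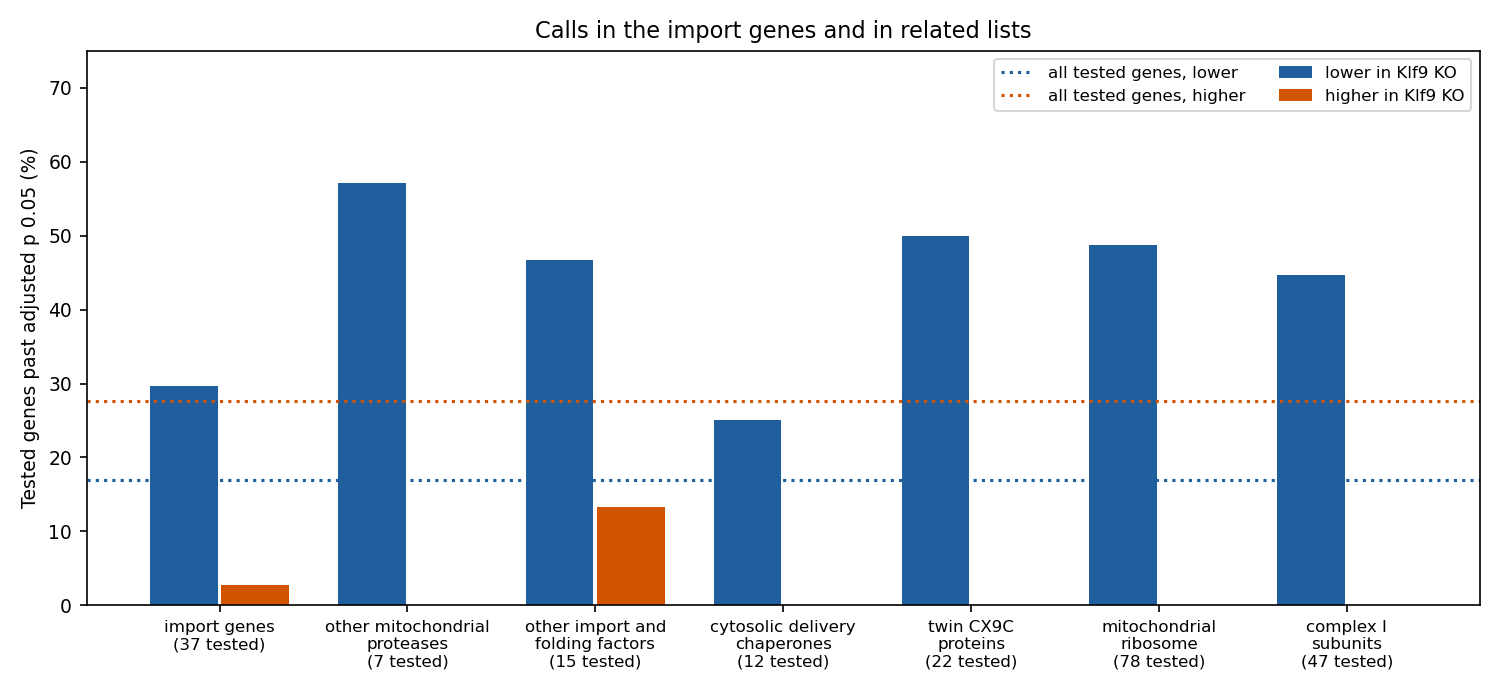
Share of tested genes that passed at an adjusted p below 0.05 as lower (blue) or higher (orange) in Klf9 KO hearts, for the import genes and 6 related lists, with the shares among all tested genes (17.0% lower, 27.7% higher) as dotted lines. The lower share was 29.7% in the import genes, 48.7% in the mitochondrial ribosome and 57.1% in the 7 other mitochondrial proteases. It was 44.7% in the bar labelled complex I subunits, a list that also takes in assembly factors.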

How the data were processed

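Per the labels, total RNA of hearts was sequenced in 2 Klf9 KO and 2 WT libraries. The authors deposited 1 table of comparisons: per the file headers, log2 ratios with p-values and false discovery rate scores for every pair of a Klf9 KO and a WT library (4 pairs), and a log2 ratio, p-value and q-value for the groups from DEGseq. The score columns were not used. The aligner, quantification, genome build and depth are not given in the sources used here. Columns were matched to samples by title.

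The 4 ratios of a gene were additive to within 9.9e-14 and were turned, by continued fractions, into 4 whole numbers without a common divisor that have these ratios, read as values in steps of 0.01; a missing ratio was read as a pair of values at 1 step. All 17485 genes were resolved, against 0 of 2000 drawn genes after moving the ratios by 1e-06. The step is an assumption, any common multiple of a gene's 4 values is lost, and 0.01 may stand for 0. The fit was tested on simulated data.

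The 12135 genes that reached a value of 1 in 2 or more libraries were fitted with limma 3.58.1 in R 4.3.3 (trend, robust) on log2(value + 1), which understates changes of low genes. Group was the only term and the threshold a Benjamini-Hochberg adjusted p of 0.05 over all tested genes. Alternatives were scaling by RLE or by the upper quartile, all genes kept, 0.1 as the pseudocount, no robust setting, a replicate block and leaving out each library. Python 3.11.15, numpy 2.4.6, pandas 2.3.3 and matplotlib 3.10.9 were used. All import genes may be named. Those that passed have every library's value, as do the paralog pairs, and other lists give up to 2 genes per direction, by lowest p. Some genes that did not pass, such as Mtch2 and Hspa8, were named outside that rule. The members and lists were chosen with earlier results of these data known.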

Additional observations from a re-analysis of the deposited data

How the results depend on the processing

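The median log2 fold change of the import genes relative to all tested genes stayed between -0.73 and -0.37 over all alternatives. The 11 lower genes kept a negative fold change in each. Where a library was left out this had to be so, because both Klf9 KO libraries lay below both WT libraries in all 11. The number of lower import genes was 19 after RLE scaling and 4 without a filter on low values (Tomm5, Timm23, Hspa9 and Timm29), and 1 to 24 when each library was left out; that of higher ones was 0 after RLE scaling (limma; 1 at an unadjusted p below 0.05) and 0 to 2 when each library was left out. Over all genes the lower calls ran from 1100 to 3261 and the higher ones from 1859 to 4327 when each library was left out; these fits rest on 3 libraries and assume that the lone library of a group varies like the others. Where fold changes turned sign they had not passed: Tomm40 was at -0.10 after RLE and -0.0101 after upper quartile scaling, and Tomm6 was at -0.0395 and Mtx1 at -0.036 after RLE scaling. When each library was left out, Tomm40 ran from -0.0535 to 0.14, Tomm20 from -0.37 to 0.0945, Tomm70a from -0.29 to 0.0453, Tomm6 from -0.06 to 0.27, Tomm7 from -0.68 to 0.17, Timm9 from -0.55 to 0.24, Mtx1 from -0.0301 to 0.24 and Gfer from -0.34 to 0.12. Otherwise the cause was not tested. Same-numbered libraries did not deviate together over genes (correlation -0.04 over 12135 genes). With 1 difference per group, this cannot exclude that they were paired, and the labels name no pairing. A replicate block gave 14 lower and 1 higher import genes, against 11 and 1 without it. With 2 libraries a group and unknown depth, no limit from counting can be given.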

Other observations

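Substrates and carriers of the import pathways are given here as values. Twin CX9C proteins are a class of substrates of the MIA pathway and are mostly small proteins between the membranes. The list used here shares Ndufa8, Ndufb7, Ndufb10 and Ndufs5 with the complex I list. Of 22 tested, 11 were lower in Klf9 KO hearts (50%) and 0 higher (limma; 0 higher at an unadjusted p below 0.05), against 17.0% and 27.7% of all tested genes, while Chchd4 and Gfer, which fold them, did not pass. Coa5, an assembly factor of cytochrome oxidase, stood at 33.3 and 31.4 in Klf9 KO hearts, against 69.5 and 76.4 in WT hearts (log2 fold change -1.15 ± 0.18, SE; limma adjusted p = 0.00116). Chchd10, whose mutations in humans cause muscle and motor neuron disease, stood at 659 and 728, against 1395 and 1407 in WT hearts (-1.02 ± 0.23; limma adjusted p = 0.0066). Both genes had close replicates in both groups, and the Klf9 KO libraries were both below the WT ones. The 3 beta-barrel channels Vdac1, Vdac2 and Vdac3, which the SAM complex inserts, did not pass; their log2 fold changes were -0.40, -0.18 and -0.47.

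Of 12 cytosolic chaperones that deliver precursors, 3 were lower (25.0%) and 0 higher (limma; 1 higher at an unadjusted p below 0.05), against 17.0% and 27.7% of all tested genes; with 12 genes the lower share is near the background. Dnaja4, a J protein of cytosolic Hsp70, stood at 27.2 and 30.3 in Klf9 KO hearts, against 53.4 and 61.3 in WT hearts (log2 fold change -0.97 ± 0.19, SE; limma adjusted p = 0.00314). Dnaja2, its relative, stood at 51.6 and 49.4, against 83.8 and 121 in WT hearts (-0.98 ± 0.22; limma adjusted p = 0.0071). Hspa8, the main cytosolic Hsp70, had a log2 fold change of -0.63 ± 0.26 and did not pass.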
